A study of Mus musculus with 6 samples.

Results

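The serpin protease inhibitor genes described here are the 8 mouse genes Serpina3f, Serpina3g, Serpina3n, Serpinb1a, Serpinb6a, Serpinb6b, Serpinb9 and Serping1, found by symbol among the 54532 genes of the series. The data are 6 RNA-seq libraries of sorted cells, each the only library of its condition, so no value has a replicate check, no test between conditions was possible, and no p-value is given. Macrophages were taken from all groups, WT and MA9 mice without and with iron (written WT/FE and MA9/FE), and leukemia cells from the MA9 and MA9/FE groups. All mice were C57BL/6 animals of 6 to 8 weeks. WT mice carried no leukemia. MA9 mice had received GFP+ leukemia cells made from c-kit+ bone marrow cells of C57BL/6J mice by a retrovirus that carries the MLL-AF9 fusion gene and GFP, so that all leukemia cells shared the fusion gene. The FE mice were injected 6 times into the peritoneum, on every other day, with 0.2 mL of iron dextran (25 mg/mL), in MA9 mice from 1 week after transplantation, and their controls were given PBS. By the labels the macrophages were splenic, but the methods of the study describe bone marrow cells and a gate on GFP- cells with low Gr-1 and with F4/80 and CD115. This conflict was not resolved.

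Serpins are proteins that trap proteases: the target cleaves an exposed reactive centre loop, the serpin folds the loop into its body, and the protease stays bound and inactive. Clade A serpins are mostly secreted, while clade B serpins act inside the cell and protect it from its own granule proteases. In blood cells, Serpinb1a inhibits neutrophil elastase, proteinase 3 and cathepsin G, Serpinb9 inhibits granzyme B, Serpinb6b inhibits granzyme A, and Serpina3g, also called Spi2A, is an interferon-inducible inhibitor of cysteine cathepsins. Serping1 is the C1 inhibitor of the complement and contact systems.

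The set was chosen by measured values: Serpina3f and Serpina3g were selected on their differences with iron in leukemia cells, the lowest among genes with at least 100 reads, and the other 6 are their relatives. On the log2(FPKM + 1) scale, the difference of MA9/FE from MA9 leukemia cells was -1.97 for Serpina3f and -1.90 for Serpina3g, and the next genes were Xlr (-1.72), Gm11585 (-1.72), Hba-a2 (-1.69) and Tgtp2 (-1.62). That comparison is therefore only described for these genes and supports nothing.

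The clade A members lie on chromosome 12 of GRCm38 on the + strand, Serpina3f at chr12:104214544-104221129, Serpina3g at chr12:104236245-104241939, 21.7 kb between their starts, and Serpina3n at chr12:104406729-104414329. The clade B members lie on chromosome 13, Serpinb1a at chr13:32842092-32851185 on the - strand, Serpinb6b at chr13:32965209-32979067 and Serpinb9 at chr13:33003250-33017957 on the + strand, and Serpinb6a at chr13:33917918-34002794 on the - strand. Serping1 lies at chr2:84765387-84775444 on the - strand. All 8 are annotated as protein coding.

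The coding bases of the reactive centre loop are printed for sister genes, since this loop meets the protease. They run from the conserved hinge to the base before the strand that follows the loop, within 1 exon of the GENCODE M21 transcripts. Capitals mark bases that differ from, or are absent in, the sister gene in a global alignment. Serpina3f (chr12:104220245-104220325) is marked against Serpina3g, and Serpina3g (chr12:104241072-104241149) against Serpina3f. Serpinb6a (chr13:33918119-33918193, - strand) and Serpinb6b (chr13:32978207-32978275) are marked against each other.
Serpina3f: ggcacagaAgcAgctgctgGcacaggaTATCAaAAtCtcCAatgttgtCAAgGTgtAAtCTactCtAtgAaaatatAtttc
Serpina3g: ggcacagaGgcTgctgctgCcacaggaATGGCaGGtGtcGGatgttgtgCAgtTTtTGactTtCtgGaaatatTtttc
Serpinb6a: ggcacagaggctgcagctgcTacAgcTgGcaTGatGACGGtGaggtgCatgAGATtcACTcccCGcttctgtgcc
Serpinb6b: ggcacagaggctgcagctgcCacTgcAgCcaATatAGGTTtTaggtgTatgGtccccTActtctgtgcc
The capitals begin within the hinge and gather behind it. Of 81 aligned columns, 55 (67.9%) were identical between Serpina3f and Serpina3g, and of 75 columns, 53 (70.7%) were identical between Serpinb6a and Serpinb6b. Over the whole coding sequences of the transcripts used, 650 of 1335 columns (48.7%) were identical between Serpina3f (1335 bases) and Serpina3g (744 bases). Bases absent in the shorter sequence count there as not identical, so this share cannot be set against that of the loop. Between Serpinb6a and Serpinb6b 81.2% of columns were identical, so in this pair the loop was less alike than the whole.

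The promoters of Serpina3f and Serpina3g are shown because these genes had the lowest iron differences in leukemia cells. RefSeq promoter entries (GRCm38.p6, 250 bases before to 50 after the start site) were at hand for 6 of the 8 members, with 2 entries each for Serpina3f and Serpinb6a. The upstream Serpina3f entry (chr12:104214294-104214593, + strand) and the Serpina3g entry (chr12:104235897-104236196, + strand) are printed with 3 searched motifs in capitals, on both strands: TTCNNNGAA (STAT), GAAANNGAA (the core of an interferon response element) and GGNNNTTCC (the core of an NF-kappaB site).
Serpina3f promoter: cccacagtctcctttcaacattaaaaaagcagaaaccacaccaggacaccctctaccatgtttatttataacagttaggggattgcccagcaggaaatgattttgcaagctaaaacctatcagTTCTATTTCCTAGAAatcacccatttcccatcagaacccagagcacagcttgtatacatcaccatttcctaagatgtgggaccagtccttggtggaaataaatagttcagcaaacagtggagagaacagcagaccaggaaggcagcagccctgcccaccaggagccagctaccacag
Serpina3g promoter: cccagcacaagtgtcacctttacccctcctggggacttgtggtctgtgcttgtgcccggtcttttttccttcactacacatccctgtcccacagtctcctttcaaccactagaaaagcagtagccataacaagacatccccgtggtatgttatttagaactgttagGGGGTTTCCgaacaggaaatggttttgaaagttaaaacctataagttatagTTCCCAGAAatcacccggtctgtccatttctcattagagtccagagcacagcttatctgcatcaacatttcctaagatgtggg
The capitals in Serpina3f are a STAT match (TTCCTAGAA, bases 130 to 138) that overlaps a match to the interferon element on the other strand (TTCTATTTC, bases 124 to 132). Serpina3g held a STAT match (TTCCCAGAA, bases 218 to 226) and an NF-kappaB match (GGGGTTTCC, bases 167 to 175). Among 32851 promoters of the same length, 8.30% held the STAT letters, 8.56% the interferon element letters and 18.5% the NF-kappaB letters. Serpina3n had the NF-kappaB letters and Serpinb9 the interferon element letters. Serpinb6a had 2 STAT matches in its upstream entry and an interferon element match in each of its 2 entries, and Serpinb6b had none of the 3. Such a match is a description of letters and not a site of binding.

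The values are FPKM, deposited by the authors. The value of 1 read was recovered from them and gave depths of 16085346 to 19518359 reads per library. Differences between 2 libraries are given as the log2 difference of FPKM + 1 after pairwise TMM scaling (trimmed mean of M values), which understates differences of low genes, and as the ratio of normalised reads with its exact 95% interval. These intervals, and those of the levels, cover counting error only and not the difference between mice. A gene was tested when 1 library of the pair held at least 10 reads and was called higher or lower at a fold of at least 2. The libraries labelled macrophages also held B cell transcripts: the B cell marker list (15 of 16 names found, all above 0) summed to 1678 to 2892 FPKM there, against 564 to 1263 FPKM for the 17 macrophage markers. The neutrophil list (15 genes) summed to 18.8 and 18.9 FPKM in WT and WT/FE macrophages and to 1932 and 983 FPKM in those of MA9 and MA9/FE mice, against 3102 and 2472 FPKM in the leukemia cells of the same mice. The list of progenitor genes and MLL-AF9 targets (10 genes) summed to 995 and 1011 FPKM in leukemia cells and to 76.4 to 125 in macrophage libraries. In such bulk RNA, fewer cells of a type and less RNA per cell cannot be told apart, and the part of other cells in the results below was not tested.

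Most of the serpin RNA came from these few genes. Of 68 genes whose symbol starts with Serpin, 21 had at least 10 reads in 1 library, 12 had at least 100, and 28 had none. Members made up 92.6% to 93.8% of the summed serpin FPKM in the 4 macrophage libraries and in MA9 leukemia cells, and 86.3% in MA9/FE leukemia cells. Serpina3g alone was 49.1% to 57.6% of the sum in macrophages but 9.50% in leukemia cells without iron and 2.59% in those with iron. Serpinb1a was 13.6% to 23.4% in macrophages and 78.9% and 80.9% in leukemia cells. The leading serpin thus differed between the kinds of library.

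**Figure D1:**
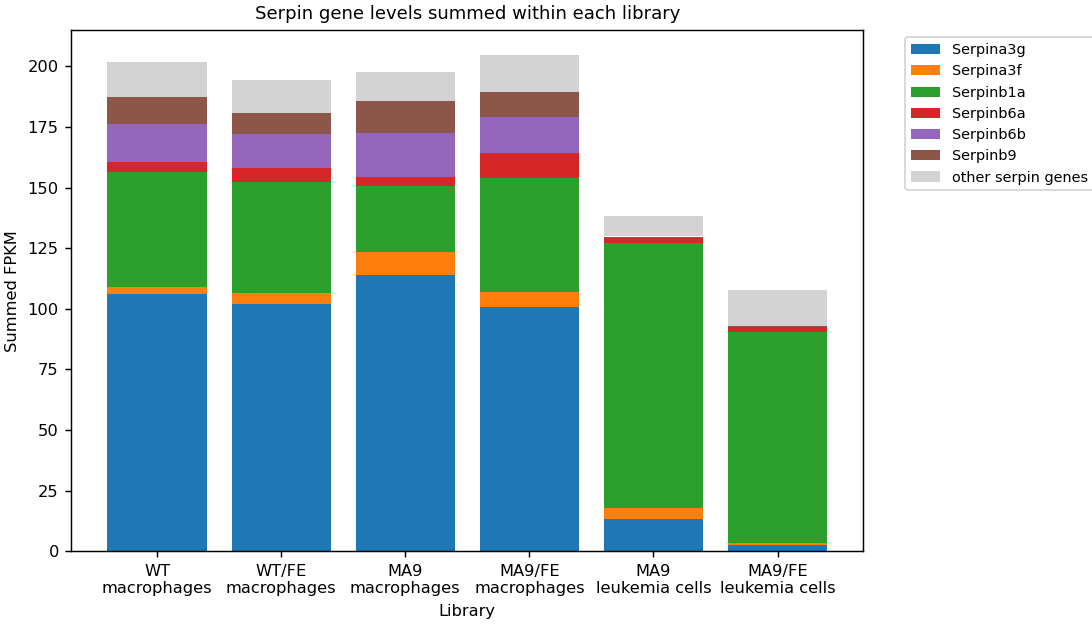
Stacked bars of the summed FPKM of serpin genes in each of the 6 libraries, by member, with the other serpin genes in grey. Serpina3g is the largest block in the 4 macrophage libraries and Serpinb1a in both leukemia cell libraries, where the sums are 138 and 108 FPKM.

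Serpina3g was high and nearly even across macrophages. Its macrophage levels were 106 FPKM for WT, 102 for WT/FE, 114 for MA9 and 101 for MA9/FE mice (4362, 3602, 4079 and 3406 reads). Leukemia cells held 13.2 FPKM without iron (503 reads) and 2.79 FPKM with iron (105 reads). All 4 macrophage libraries lay above both leukemia cell libraries, and the counting intervals of WT, WT/FE and MA9/FE macrophages overlapped as neighbours in that order. In leukemia cells the iron library held the lower level, with a ratio of 0.212 (95% interval 0.170 to 0.262). In TPM, which rescale the FPKM of a library to a fixed sum, MA9/FE macrophages were the lowest of the macrophages at 189, against 259 in WT, 275 in WT/FE and 291 in MA9. The FPKM of all genes summed to more in that library than in any other.

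Serpina3f, its neighbour on chromosome 12, had lower levels and another order. Macrophages measured 3.04 FPKM for WT, 4.78 for WT/FE, 9.61 for MA9 and 6.38 for MA9/FE mice (136, 184, 374 and 235 reads). Leukemia cells measured 4.64 FPKM without iron and 0.44 FPKM with iron (193 and 18 reads). MA9 macrophages were the highest library and MA9/FE leukemia cells the lowest, while the intervals of WT/FE macrophages and MA9 leukemia cells overlapped. The ratio of MA9/FE to MA9 leukemia cells was 0.0948 (0.0550 to 0.154), and the log2 difference of -1.97 became -3.13 with a pseudocount of 0.1 and -3.36 on the recovered reads. Both genes therefore stood lower with iron in leukemia cells, but Serpina3g exceeded Serpina3f by 34.9-fold in WT macrophages and by 2.84-fold in MA9 leukemia cells on the FPKM scale.

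Reads of these sister genes can be mistaken for each other where their sequence is the same. Of all windows of 100 bases in their transcripts, 3.40% of those of Serpina3f and 3.49% of those of Serpina3g also occurred in another gene, and of windows of 50 bases 10.6% and 15.5% did. The read length and the treatment of such reads were not given in the sources used here. The 6 other Serpina3 genes and pseudogenes that share windows with them held 0 to 5 reads in sum per library. Within the pair, Serpina3g held 4362 reads and Serpina3f 136 in WT macrophages. Even a small share of misplaced Serpina3g reads could therefore weigh on Serpina3f in macrophages, which was not tested.

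Serpina3n, an inhibitor of granzyme B and neutrophil elastase known as an acute phase protein, had 0 reads in all 6 libraries. A count of 0 allows up to 3 reads, or 0.0745 to 0.0904 FPKM depending on the library. Serping1 had 1 read in MA9 macrophages, 5 in MA9 leukemia cells and 0 in the other 4 libraries, so neither gene reached the 10 reads that a comparison required. The remaining 6 members had at least 100 reads in 1 library or more.

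Serpinb1a was the most abundant serpin of the leukemia cells. Its macrophage levels were 47.2 FPKM for WT, 45.5 for WT/FE, 27.0 for MA9 and 46.9 for MA9/FE mice (2120, 1760, 1056 and 1736 reads). Leukemia cells reached 109 FPKM without iron and 87.2 FPKM with iron (4570 and 3587 reads). Both leukemia cell libraries lay above all macrophage libraries, and MA9 macrophages stood below the other 3, whose intervals overlapped as neighbours.

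Serpinb6a, a broad inhibitor of serine proteases inside the cell, was highest in the macrophages of mice with both leukemia and iron. Macrophages measured 4.04 FPKM for WT, 5.79 for WT/FE, 3.75 for MA9 and 10.3 for MA9/FE mice (427, 526, 345 and 899 reads). Leukemia cells measured 1.98 FPKM without iron and 2.11 FPKM with iron (194 and 204 reads). Both iron libraries of macrophages lay above both PBS libraries, and the leukemia cell libraries overlapped. Exons of Ripk1, Nqo2 and 1110046J04Rik on the opposite strand cover 29.3% of the exon bases of Serpinb6a, and whether counting used the strand was not given in the sources used here.

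Serpinb6b and Serpinb9 were genes of the macrophage libraries. Serpinb6b measured 15.7 FPKM in the macrophages of WT, 14.3 in those of WT/FE, 18.1 in those of MA9 and 14.9 in those of MA9/FE mice (693, 543, 695 and 542 reads) but had 2 reads in the leukemia cells without iron and 1 read in those with iron. Serpinb9 measured 11.1, 8.57, 13.2 and 10.5 FPKM in the same macrophages (757, 503, 782 and 591 reads), and 0.65 and 0.38 FPKM in the leukemia cells without and with iron (41 and 24 reads). For each gene the macrophage libraries did not overlap the leukemia cell libraries, and the 2 leukemia cell libraries overlapped each other. Serpinb6a and Serpinb6b thus differed in leukemia cells, where Serpinb6a had 194 and 204 reads and Serpinb6b 2 and 1.

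**Figure D2:**
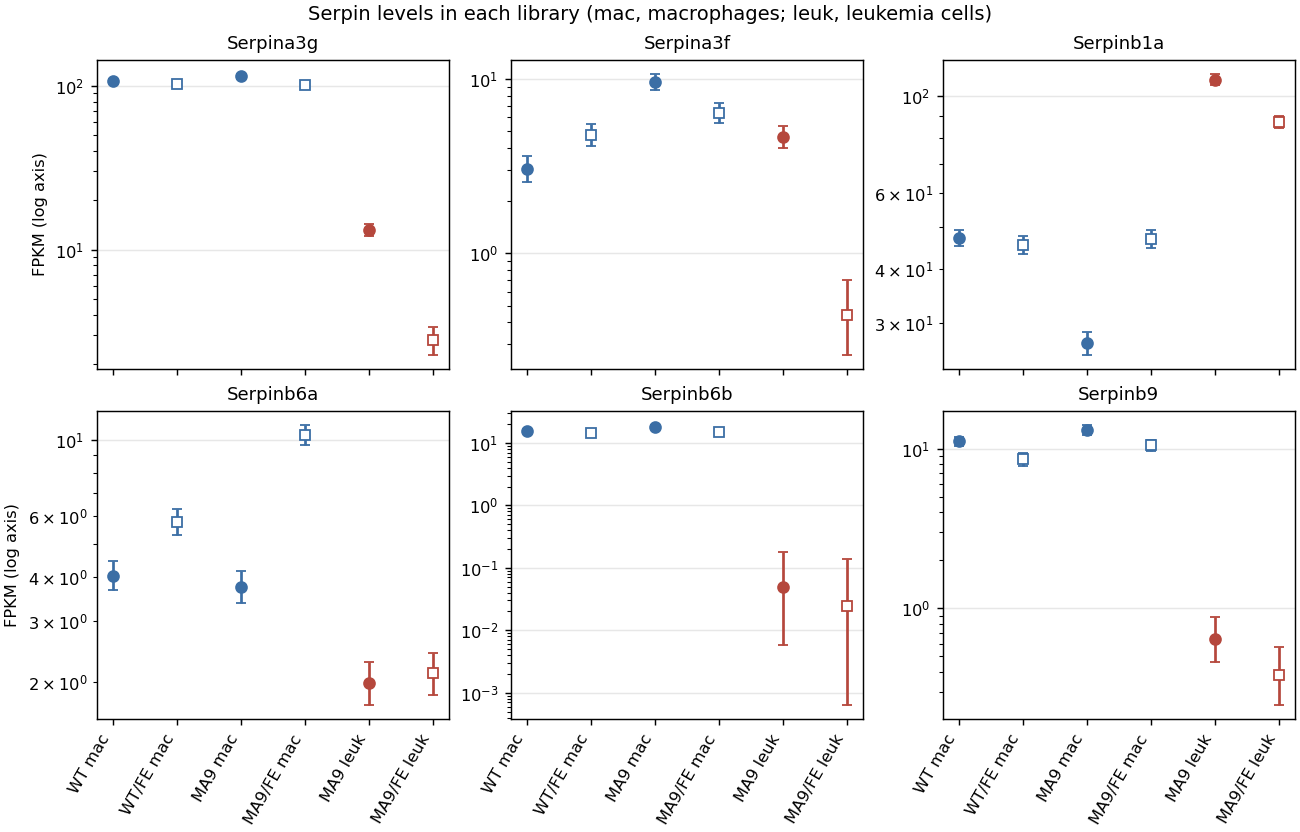
FPKM on a log axis in each of the 6 libraries for the 6 detected members, with macrophages in blue, leukemia cells in red, PBS as filled circles and iron dextran as open squares, and exact 95% Poisson intervals that cover counting error only. Serpina3g, Serpinb6a, Serpinb6b and Serpinb9 are higher in every macrophage library than in both leukemia cell libraries. Serpinb1a is the reverse, and Serpina3f is lowest in MA9/FE leukemia cells at 0.44 FPKM.

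The question of the iron comparisons was what iron dextran did in each kind of cell. In macrophages without leukemia, no member passed a fold of 2 between WT/FE and WT (0 of 6 tested), where 0.728% of 16754 genes were called higher and 0.543% lower. The widest difference was that of Serpina3f, which was higher with iron at a ratio of 1.56 (1.25 to 1.97), followed by Serpinb6a at 1.42 (1.25 to 1.62) and by Serpinb9, lower at 0.769 (0.685 to 0.861). The intervals of Serpinb1a (0.901 to 1.02) and Serpinb6b (0.809 to 1.02) included equal levels, and Serpina3g was at 0.955 (0.914 to 0.998). From WT to WT/FE macrophages the summed FPKM of the macrophage list went from 574 to 974, that of the erythroid list from 94.6 to 205 and that of the T and NK cell list from 147 to 108, and their part in these differences was not tested. The median log2 difference was -0.06 over the 6 members and -0.01 over all genes tested.

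In macrophages of leukemic mice, 1 of 6 members was called, where 1.20% of 16512 genes were called higher and 1.26% lower in MA9/FE than in MA9. This was Serpinb6a, which was higher with iron by 1.28 on the log2 scale, with a ratio of 2.82 (2.49 to 3.21). In TPM Serpinb6a went from 9.59 to 19.4, and no call was made on that scale. The genes that overlap it on the opposite strand had 990 reads in MA9 and 751 in MA9/FE macrophages (Ripk1), 237 and 254 (Nqo2) and 0 and 7 (1110046J04Rik), and their part in the reads of Serpinb6a was not tested. Serpinb1a was higher at 1.78 (1.65 to 1.92), short of the threshold, and its TPM went from 68.9 to 88.1. Serpina3f was lower at 0.681 (0.576 to 0.804), Serpinb9 at 0.819 (0.735 to 0.912), Serpinb6b at 0.845 (0.754 to 0.947) and Serpina3g at 0.905 (0.864 to 0.947). From MA9 to MA9/FE macrophages the summed FPKM of the macrophage list went from 564 to 1263, that of the B cell list from 1678 to 2779 and that of the neutrophil list from 1932 to 983, and their part in these differences was not tested. The median was -0.19 over the members and 0.01 over all genes.

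In leukemia cells, the comparison that chose the genes, 2 of 5 tested members were called lower and none higher in MA9/FE, where 0.428% of 15415 genes were called lower and 0.435% higher. Nothing is read from that count. Beside Serpina3f and Serpina3g, Serpinb1a was lower at 0.798 (0.764 to 0.834). The intervals of Serpinb9 (0.344 to 1.01) and Serpinb6a (0.874 to 1.31) included equal levels. Serpinb6b was not tested, and with 1 against 2 reads its ratio was 0.508 with an interval from 0.00862 to 9.76. The macrophage list summed to 248 FPKM in the MA9 library and 253 in the MA9/FE library, the B cell list to 114 and 106, the T and NK cell list to 54.4 and 57.7, and the plasma cell list to 77.8 and 79.7. The erythroid list went from 427 to 162 and the neutrophil list from 3102 to 2472, and the part of these cells was not tested. The 3 iron comparisons use separate libraries and none of them has a replicate, so their differences from each other could not be tested.

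**Figure D3:**
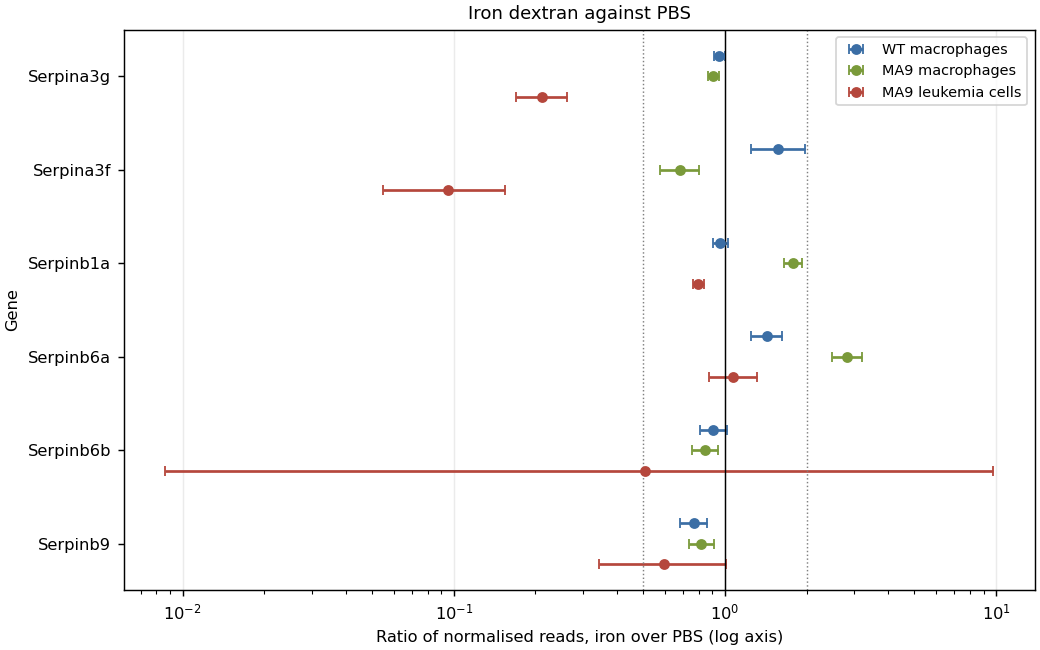
Ratio of normalised reads with iron dextran over PBS, on a log axis, for 6 members in WT macrophages (blue), MA9 macrophages (green) and MA9 leukemia cells (red), with exact 95% intervals for counting error and dotted lines at a fold of 2. Serpina3g at 0.212 and Serpina3f at 0.0948 in leukemia cells and Serpinb6a at 2.82 in MA9 macrophages lie past the dotted lines, and Serpinb6b in leukemia cells rests on 3 reads.

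Leukemia itself was compared in macrophages as MA9 against WT and as MA9/FE against WT/FE. Serpina3f was the single member called in the first, 3.04 FPKM in WT and 9.61 in MA9, with a log2 difference of 1.40 and a ratio of 3.19 (2.61 to 3.91). This was 1 of 6 tested, where 3.79% of 16926 genes were called higher and 0.910% lower. Serpinb1a was lower in MA9 at a ratio of 0.577 (0.536 to 0.622), short of the threshold, and Serpinb9 (1.20), Serpinb6b (1.16) and Serpina3g (1.08) were within 1.5-fold of WT. In the iron-treated mice 0 of 6 members were called, where 2.93% of 16571 genes were called higher and 1.64% lower. Serpina3f was at 1.35 (1.11 to 1.65) and Serpinb6a at 1.81 (1.62 to 2.02). In TPM the order of Serpina3f was the reverse, at 12.92 in WT/FE and 11.99 in MA9/FE macrophages. That of Serpinb6a stayed, at 15.6 and 19.4. The neutrophil marker list, whose sum was 18.8 FPKM in WT and 1932 in MA9 macrophages, and 18.9 and 983 with iron, moved with both comparisons. From WT to MA9 macrophages the B cell list went from 2892 to 1678 FPKM, the plasma cell list from 1080 to 2159 and the erythroid list from 94.6 to 269, and the part of these lists in the differences was not tested.

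Leukemia cells were also compared with macrophages from mice of the same treatment. The labels give the bone marrow for the former and the spleen for the latter, so that by the labels the kind of cell and the tissue cannot be told apart here. In MA9 mice, 3 of 6 tested members were called lower in leukemia cells and 1 higher, where 12.6% of 17044 genes were called lower and 7.34% higher. Serpina3g was lower at a ratio of 0.113 (0.103 to 0.124), which is 8.86-fold, and Serpinb9 at 0.0480 (0.0342 to 0.0657), which is 20.8-fold. Serpinb6b, which passed the minimum of reads only through the macrophages and so had to differ, had a ratio of 0.00263 (0.000318 to 0.00955). Serpinb1a was the member called higher, at 3.96 (3.70 to 4.24). Serpina3f at 0.472 (0.395 to 0.564) and Serpinb6a at 0.515 (0.430 to 0.616) were lower in leukemia cells without a call on the log2(FPKM + 1) scale.

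In MA9/FE mice, 5 of 6 tested members were called lower in leukemia cells and 0 higher, where 13.2% of 16842 genes were called lower and 9.60% higher. Serpina3g was at a ratio of 0.0272 (0.0222 to 0.0331), Serpinb9 at 0.0359 (0.0228 to 0.0539), and Serpina3f at 0.0677 (0.0394 to 0.109). Serpinb6a was 4.99-fold (4.28 to 5.84) higher in the macrophages. Serpinb6b again passed only through the macrophages, at 0.00163 (4.12e-05 to 0.00912). Serpinb1a was higher at 1.83 (1.72 to 1.93), short of the threshold. The leukemia cell libraries of this comparison and of the iron comparison are the same, so the low Serpina3f and Serpina3g of MA9/FE leukemia cells enter both.

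**Figure D4:**
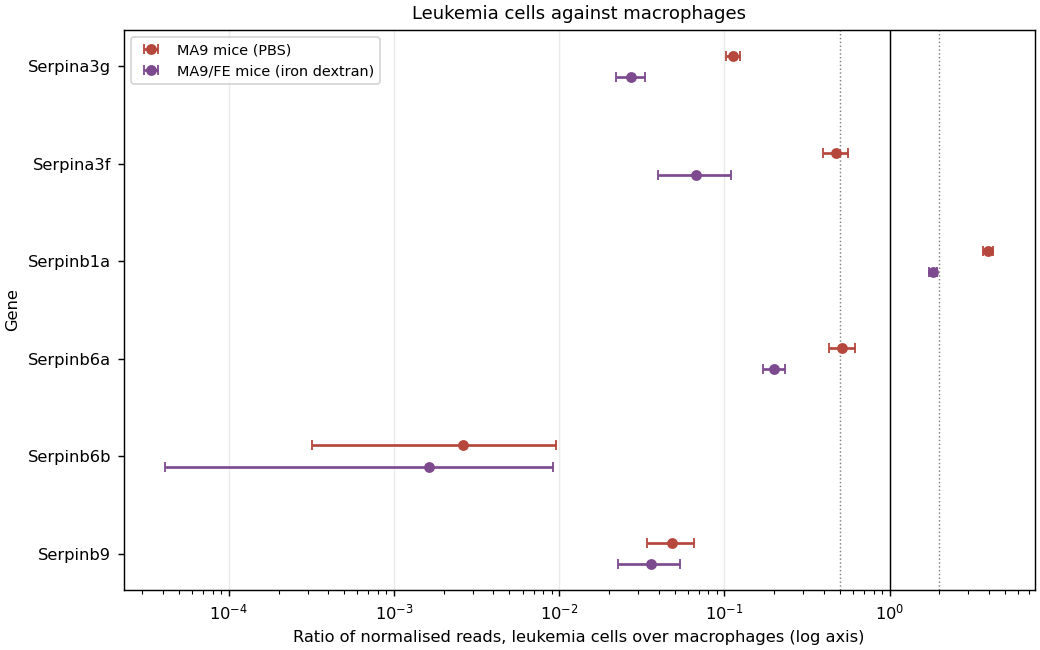
Ratio of normalised reads in leukemia cells over macrophages, on a log axis, for 6 members in PBS mice (red) and iron-treated mice (purple), with exact 95% intervals for counting error and dotted lines at a fold of 2. Serpinb1a is the member to the right of 1 in both, at 3.96 and 1.83, and Serpinb6b lies farthest to the left on 2 and 1 reads in leukemia cells.

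The proteases that serpins trap were read from lists of known targets. The neutrophil serine proteases, targets of Serpinb1a, were far higher in leukemia cells: Elane was at 1705 FPKM (MA9) and 1270 FPKM (MA9/FE) in leukemia cells, at 56.8 and 29.4 FPKM in the macrophages of the same mice, and at 1.51 and 0.97 FPKM in those of WT and WT/FE mice. All 4 genes of that list were called higher in leukemia cells than in macrophages in both treatments, against 7.34% and 9.60% of all tested genes. In macrophages 3 of 4 (Elane, Ctsg and Prtn3) were called higher in MA9 than in WT and in MA9/FE than in WT/FE, against 3.79% and 2.93%. None of the 4 was called with iron in any of the 3 iron comparisons. Serpinb1a was also high in leukemia cells, yet in MA9 macrophages, where Elane exceeded its WT level, Serpinb1a was at its lowest. In MA9/FE macrophages Elane also exceeded its WT/FE level, but Serpinb1a was at 46.9 FPKM, against 45.5 in WT/FE. On the TPM scale Serpinb1a was lower there, at 88.1 against 122.9 in WT/FE.

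The granzymes and perforin, proteins of cytotoxic granules that include targets of Serpinb9 and Serpinb6b, were low in leukemia cells except for Gzmm, at 1.39 FPKM in MA9/FE macrophages and 1.05 FPKM in MA9 leukemia cells as its highest levels. Of 5 tested genes, 4 were called lower there in each treatment, against 12.6% and 13.2% of all tested genes. Gzma, Gzmk and Prf1 had under 10 reads in both leukemia cell libraries, and Gzmb in that of MA9 mice. In these cases the genes passed the minimum of reads only through the macrophages and so had to be lower. Gzma was at 58.2 FPKM in MA9 macrophages and 0.38 in MA9 leukemia cells, Gzmb at 16.1 and 0.08, and Prf1 at 8.06 and 0.04. In macrophages with iron, none of the 5 was called in either iron comparison, and Gzmk was called higher in MA9/FE than in WT/FE.

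The cathepsins are mostly lysosomal proteases, some of which Serpina3g can inhibit. In leukemia cells 0 of 9 tested were called with iron, with a median of 0.09. Ctsb was there at 84.5 FPKM without and 90.1 with iron and Ctsl at 4.51 and 6.53, while Serpina3g went from 13.2 to 2.79. In MA9/FE against MA9 macrophages 9 of 10 were above 0 and 1 was called, Ctsd at 57.3 and 116 FPKM. Ctse was called higher in MA9 than in WT macrophages and Ctsd in MA9/FE than in WT/FE. In leukemia cells against macrophages, Ctss was called lower in both treatments and Ctsb in the iron-treated mice. Among the C1, mannose-binding lectin and contact proteases, the targets of Serping1, 1 or 2 of 8 genes had 10 reads in a comparison and none was called. In the plasminogen system, 3 to 5 of 7 genes were tested, and Serpinb2, the urokinase inhibitor PAI-2, was the single gene called, lower in leukemia cells in both treatments. With 3 and 1 reads there it passed the minimum of reads only through the macrophages, which fixed that direction.

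Genes known to be induced by the same signals as Serpina3g were described from lists that were chosen with earlier results of these data known. Their values are therefore a description only, and Tgtp2 is also among the lowest differences given above. In leukemia cells with iron, 22 of 23 tested interferon gamma genes were below 0, with a median of -0.52 against 0.00 over all genes, and 2 were called lower, against 0.428% of all tested genes. These were Tgtp2, a GTPase of cell-autonomous defence, at 3.13 and 0.34 FPKM, and Gbp2, a guanylate-binding protein, at 10.1 and 3.47 FPKM. Irf1, a transcription factor induced by interferon gamma, was at 30.6 and 18.7 FPKM, and Irf8 was the gene above 0, at 89.4 and 116 FPKM. Of 22 type I interferon genes, all were below 0, with a median of -0.56, and 5 were called lower, of which Isg15 (9.76 and 3.04 FPKM), Rtp4 (3.51 and 0.95), Oasl2 (3.87 and 1.21) and Zbp1 (7.35 and 3.02) had the widest differences. Iigp1, Tgtp1 and Ifi44 (0.02, 0.12 and 0.01 FPKM with iron) passed the minimum of reads only through the MA9 library and so had to be below 0. The NF-kappaB list (16 tested, 11 below 0, median -0.11) and the list of STAT3 and acute phase genes (11 tested, 5 below 0, median 0.04) had no call.

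**Figure D5:**
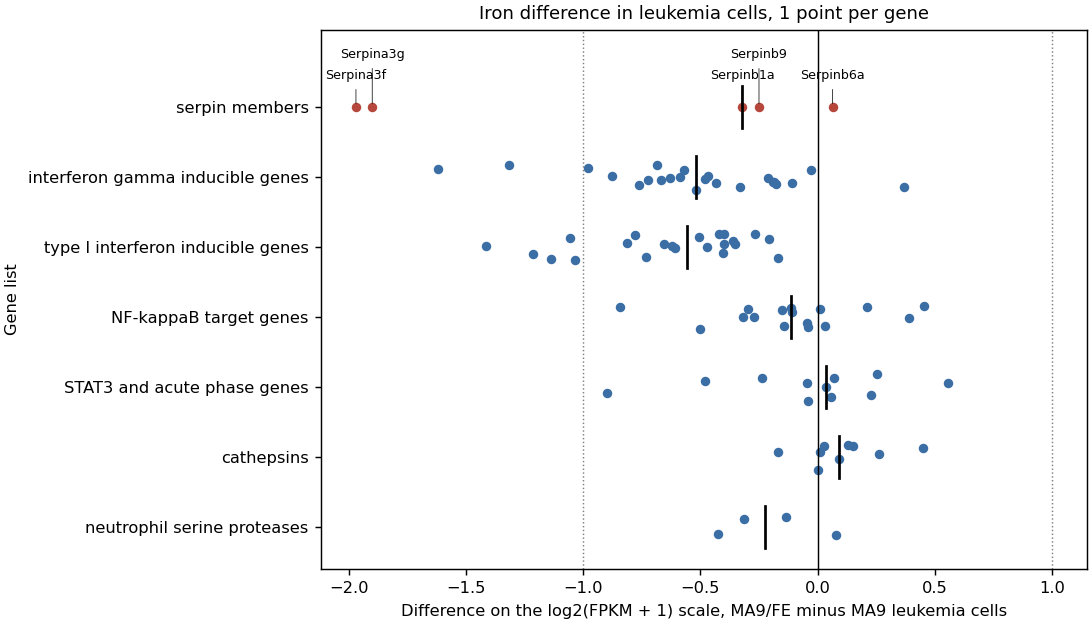
Differences on the log2(FPKM + 1) scale between MA9/FE and MA9 leukemia cells, 1 point per tested gene, for the serpin members (red, named) and 6 gene lists (blue), with black bars at the medians and dotted lines at a fold of 2. Serpina3f at -1.97 and Serpina3g at -1.90 were chosen by this comparison, which fixes their place at the left, and the interferon lists have medians of -0.52 and -0.56.

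In macrophages the same lists took other values. In WT/FE against WT, 18 of 24 interferon gamma genes were below 0 with a median of -0.07 and no call, and 22 of 22 type I genes were below 0 with a median of -0.37 and 1 call, Isg15 at 36.6 and 16.6 FPKM. In MA9/FE against MA9 macrophages the medians were -0.19 (24 genes) and -0.02 (22 genes), and Iigp1 (9.54 and 2.95 FPKM) and Tgtp1 (4.79 and 1.67) were called lower. These 2 genes were also the interferon gamma genes called higher in MA9 than in WT macrophages, where Iigp1 was at 1.59 FPKM in WT. Serpina3f also had its highest macrophage level in MA9, but so did Serpina3g, Serpinb9 and Serpinb6b, the last with an interval that overlapped that of WT. In MA9/FE against WT/FE, 0 interferon gamma genes and 2 type I genes, Isg20 and Isg15, were called higher. In leukemia cells against macrophages, 15 of 24 interferon gamma genes and 11 of 22 type I genes were called lower in MA9 mice, where 12.6% of all tested genes were, and 18 of 23 and 15 of 22 in MA9/FE mice, where 13.2% were. In MA9/FE leukemia cells Iigp1, Tgtp1 and Ifi44 were at 0.02, 0.12 and 0.01 FPKM. They passed the minimum of reads there only through the macrophages, which fixed their lower calls.

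The other lists showed calls mainly between kinds of library. Of 16 NF-kappaB genes, 11 were called lower and 2 higher in MA9 leukemia cells than in MA9 macrophages, and 10 lower and 1 higher in the iron-treated mice, against 12.6% lower and 7.34% higher and 13.2% and 9.60% of all tested genes, with Traf1 at 35.9 and 0.17 FPKM and Ccl3 at 62.0 and 173 FPKM in MA9 macrophages and leukemia cells. With iron no NF-kappaB gene was called in macrophages. With leukemia 1 of 16 was higher in MA9 than in WT and 2 of 16 in MA9/FE than in WT/FE. The shares of all tested genes called higher were 3.79% and 2.93%. Cxcl2, at 0.09 FPKM in WT/FE and 1.20 in MA9/FE, passed the minimum of reads only through MA9/FE, which fixed its direction. Of the STAT3 and acute phase genes, 3 of 10 tested were called higher in MA9 than in WT macrophages. In MA9/FE against WT/FE, 3 of 11 were, and the shares of all tested genes were again 3.79% and 2.93%. Lrg1 (0 FPKM in WT and WT/FE) and Lcn2 (0.02 in both) passed the minimum of reads only through the leukemic mice, which fixed that direction. Lcn2, a granule protein of neutrophils, was at 0.02 FPKM in WT and 47.8 in MA9 macrophages, and was the gene of the list called lower in MA9/FE (22.6 FPKM). Between leukemia cells and macrophages 2 of 11 tested were called higher and 4 lower in each treatment. Of all tested genes, 7.34% and 9.60% were higher and 12.6% and 13.2% lower.

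Beyond the members, 6 serpins had at least 100 reads in 1 library. Serpinf1, a secreted serpin without protease inhibition also called PEDF, was the one called with iron in leukemia cells, higher at 10.6 against 4.74 FPKM (447 and 203 reads, ratio 2.24, 1.89 to 2.66), and it was at 1.72 to 2.06 FPKM in macrophages. Serpine2, the thrombin inhibitor protease nexin-1, was at 0.62 FPKM in leukemia cells without iron and 1.37 in those with iron (93 and 203 reads) and at 0.53 to 0.59 in macrophages, short of a call on the log2(FPKM + 1) scale. Serpini1, the plasminogen activator inhibitor neuroserpin, was at 1.65 to 2.28 FPKM in macrophages and 0.33 and 0.21 in leukemia cells. Serpinb10 was at 2.77 to 4.01 and 0.55 and 0.82 FPKM, Serpinb8 at 0.60 to 1.13 and 0.02 and 0.09 FPKM, and Serpinb2 at 1.24 to 2.42 and 0.07 and 0.02 FPKM. In the iron comparison of leukemia cells, 1 of 7 tested serpins outside the 8 members was called higher and 0 lower, against 0.435% and 0.428% of all tested genes.

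The genes most alike to Serpina3f, Serpina3g and Serpinb1a over the 6 libraries were ranked by Pearson's r of log2(FPKM + 1) among 4787 genes with at least 100 reads in 1 library and levels that spanned a fold of at least 2, as a description without a p-value. The libraries are of 2 kinds and share preparation, so a high r can come from the gap between macrophages and leukemia cells alone. Serpina3f had no such gap without iron, at 4.64 FPKM in MA9 leukemia cells and 3.04 to 9.61 FPKM in macrophages. The rankings of Serpina3f and Serpina3g also use the leukemia cell values by which these genes were chosen, so they support nothing. Serpina3f was most alike to Gbp2 (r = 0.951), Nmral1 (0.936), Lgals3bp (0.912), Igtp (0.909) and Tgtp2 (0.907). Serpina3g was most alike to Tap1 (0.998), Ddx60 (0.997), Slco3a1 (0.997), Gbp5 (0.996) and Irf1 (0.995). Serpinb1a was most alike to Neu1 (0.993), Gmfg (0.992), Clec4a2 (0.988), B3gnt8 (0.987) and AB124611 (0.986). Serpina3n had too few reads for such a ranking, and none was made for the other members.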

How the data were processed

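RNA of sorted macrophages and leukemia cells was sequenced by a service provider on a NovaSeq. The authors deposited FPKM (fragments relative to exon length and library depth) for 54532 genes by Ensembl identifier in 6 libraries. The submitters' processing notes name Bowtie2 2.2.5, RSEM and mm10, without their roles, and the annotation was not given in the sources used here. Symbols and exon lengths of 54495 genes came from GENCODE M21. FPKM times exon length gave whole multiples of 1 step, within 0.05 reads, for 96.8% to 97.0% of values above 0, and all values used for members were whole. Read depths were 16085346 to 19518359, at which counting error was small for abundant members and wide for those with few reads, and the spread between mice was not measured.

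Differences were computed in Python 3.11.15 (numpy 2.4.6, pandas 2.3.3, scipy 1.17.1, statsmodels 0.14.6) as log2(FPKM + 1) after pairwise TMM scaling, with at least 10 reads in 1 library and a fold of at least 2, and no test. Exact Poisson and Clopper-Pearson intervals (95%) cover counting error. The 8 members, the gene lists and the comparisons were chosen with earlier results of these data known. Other genes named were serpins with at least 100 reads, at most 4 genes per list and comparison with at least 100 reads and a fold of at least 2, and the 5 genes most alike to a member, while Irf1, Irf8, Ctsb, Ctsl, Gzmk, Gzmm and the genes that overlap Serpinb6a were named after their values were seen. Alternatives were other scalings, pseudocount 0.1, other minimum reads, an exact binomial test of reads (adjusted p at or under 0.01), removal of the trend on exon length, and TPM for levels. The steps were tested on simulated data.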

Additional observations from a re-analysis of the deposited data

Results flagged for a closer look

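In these results the difference with iron had opposite signs in separate pairs of libraries, each beyond counting error. With 1 library per condition the difference between the pairs was not tested. Serpina3f was higher with iron in WT macrophages (ratio 1.56) and lower in MA9 macrophages (0.681), and the log2 difference of the second pair minus that of the first was -1.003. It was also lower in MA9 leukemia cells (0.0948), for which this value was -2.482. The gene was chosen by that leukemia comparison, which fixes the direction there, so this value is a description only. Serpinb1a was higher with iron in MA9 macrophages (1.78) and lower in leukemia cells (0.798), with a value of -1.132.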

How the results depend on the processing

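No paired analysis was possible because each condition has 1 library, and no library could be left out for the same reason. The number of members past a fold of 2 stayed within 1.5 times its value under all 8 alternatives in all 7 comparisons. TPM, used for levels only, was not among these 8. Of 327 alternative values of 41 member differences, 306 moved by less than counting error, 21 moved by more, and 0 called values turned. Signs changed for 5 values, all near 0 in MA9/FE against WT/FE macrophages: Serpina3g (0.003) became -0.02 as deposited, -0.03 with the median of ratios and -0.16 without the length trend, where Serpinb1a became -0.09 and Serpinb6b -0.08. Serpina3f in MA9/FE leukemia cells against MA9/FE macrophages went from -2.37 to -3.61 with pseudocount 0.1 and -3.85 on reads, and Serpinb6b in MA9 mice from -4.20 to -8.25 on reads.

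Counts over all genes, for iron in WT macrophages, MA9 macrophages and leukemia cells, for leukemia in macrophages without and with iron, and for leukemia cells against macrophages without and with iron, were 213, 406, 133, 795, 758, 3407 and 3832. They became 784, 1499, 631, 1980, 2083, 5809 and 6498 with pseudocount 0.1 and 345, 1071, 260, 1625, 1601, 5525 and 6227 in the reads test. The first 3 became 481, 731 and 375 without a minimum and 116, 234 and 60 with a minimum of 50 reads. Without the length trend, genes higher and lower were 141 and 264 in place of 198 and 208 in MA9/FE against MA9, and 340 and 383 in place of 486 and 272 in MA9/FE against WT/FE. With 1 library per condition, neither a difference between mice nor one between sorts can be separated from these differences.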
